A study of Mus musculus with 6 samples.

Results

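The regions described here are PU.1 binding sites that had a called peak in both libraries of induced iBN cells and in replicate 2 of the uninduced cells, but none in uninduced replicate 1. They are called uninduced-2 regions below. The peaks of the 4 libraries were merged wherever they had at least 1 bp in common, and the regions were selected on the presence or absence of a called peak in each library. There were 12052 of them among 82810 regions, or 14.6%, and they made up 23.5% of the 51291 regions with a peak in each induced library. Doxycycline had been given to the induced cells at 1000 ng per ml over 72 hours and was not given to the uninduced cells. Both carried the same PU.1-inducible system and were grown in 1 ng per ml of GM-CSF. There were 2 PU.1 ChIP-seq libraries per condition and 1 merged peak list per condition made by the authors. The labels describe iBN as a granulocyte-macrophage progenitor line. They do not give the promoter or allele behind the inducible system, nor say whether replicates were separate cultures, so differences between replicates may be technical. The lists hold no expression values, so the cell type was not checked here.

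PU.1, the product of the Spi1 gene, is an ETS-family transcription factor that recognises purine-rich DNA and can open chromatin at enhancers of myeloid and B-lymphoid genes. Its level matters: high levels are known to favour macrophage differentiation, and lower levels are found in other blood lineages. A site called in 1 uninduced replicate and missed in the other belongs neither to the sites called in every library nor to those called only after induction. Where such sites stood relative to those classes was the question asked of the lists.

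Other regions found in both induced libraries served for comparison. Shared regions, 19391 in number, also had a peak in both uninduced libraries. Gained regions, 18414 in number, had a peak in neither uninduced library. The remaining 1434 had a peak in uninduced replicate 1 and none in replicate 2, and are called uninduced-1 regions. Uninduced-2 regions thus outnumbered their opposite 8.40 to 1. Of the 31443 regions present in uninduced replicate 2 and both induced libraries, 38.3% lacked a peak in uninduced replicate 1, whereas 6.89% of the 20825 present in uninduced replicate 1 and both induced libraries lacked one in replicate 2. These shares hold only for regions in both induced libraries. With no induced peak, 3426 regions had a peak in uninduced replicate 2 only and 4520 in replicate 1 only, the reverse order. With a peak in induced replicate 1 alone these counts were 1395 and 803, and in induced replicate 2 alone 341 and 300.

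The 2 uninduced lists differed in length and in order. Induced replicates 1 and 2 held 68076 and 57336 peaks, and uninduced replicates 1 and 2 held 31960 and 42951. Over the shared regions, the rank correlation (Spearman) of scores between libraries was 0.74 and 0.75 for uninduced replicate 2 with induced replicates 1 and 2. It was 0.36 and 0.38 for uninduced replicate 1 with the same 2 libraries, 0.62 between the uninduced replicates and 0.95 between the induced ones. Uninduced replicate 1 therefore stood apart from the other 3 libraries in the order of its shared peaks. Membership rests on that library: without it, the rule keeps every region with a peak in the other 3 libraries, 31461 in all. Read depth is unknown for each list, and its part in the number of uninduced-2 regions was not tested.

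The scores used below are the authors' own, 1 per peak, on a scale that the sources used here do not give, and serve only to rank peaks within a list. High and low scores, and strong and weak peaks, refer to this rank, which may reflect the significance of a peak call rather than the amount of bound PU.1. Each list starts at a score of about 50, and a region's score is that of its best peak in the library. Because presence in these same lists chose the regions, scores are given as a description and carry no test.

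In the induced libraries, the uninduced-2 regions scored between shared and gained regions. In induced replicate 1 their median score was 303 (quartiles 168 and 553), against 494 (233 and 1005) in shared and 138 (88.8 and 226) in gained regions. In induced replicate 2 the median was 192 (109 and 356), against 318 (151 and 651) in shared and 94.7 (68.4 and 147) in gained regions. The distributions overlapped widely in both lists. In induced replicate 1, 82.1% of the uninduced-2 regions scored above the gained median and 29.0% above the shared median. These shares were 80.2% and 29.0% in induced replicate 2. A randomly drawn uninduced-2 region outscored a gained region in 75.4% of pairs and a shared region in 36.7% of pairs in induced replicate 1, and in 74.1% and 36.4% of pairs in induced replicate 2.

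The uninduced-1 regions did not hold such a middle place. Their median scores were 129 in induced replicate 1 and 91.3 in induced replicate 2, close to the gained medians and below the uninduced-2 medians. The 2 kinds of region seen in a single uninduced library thus differed in induced score as well as in number. The uninduced-1 regions are a comparison class outside the rule, and the uninduced lists themselves differed in length and in order.

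**Figure D1:**
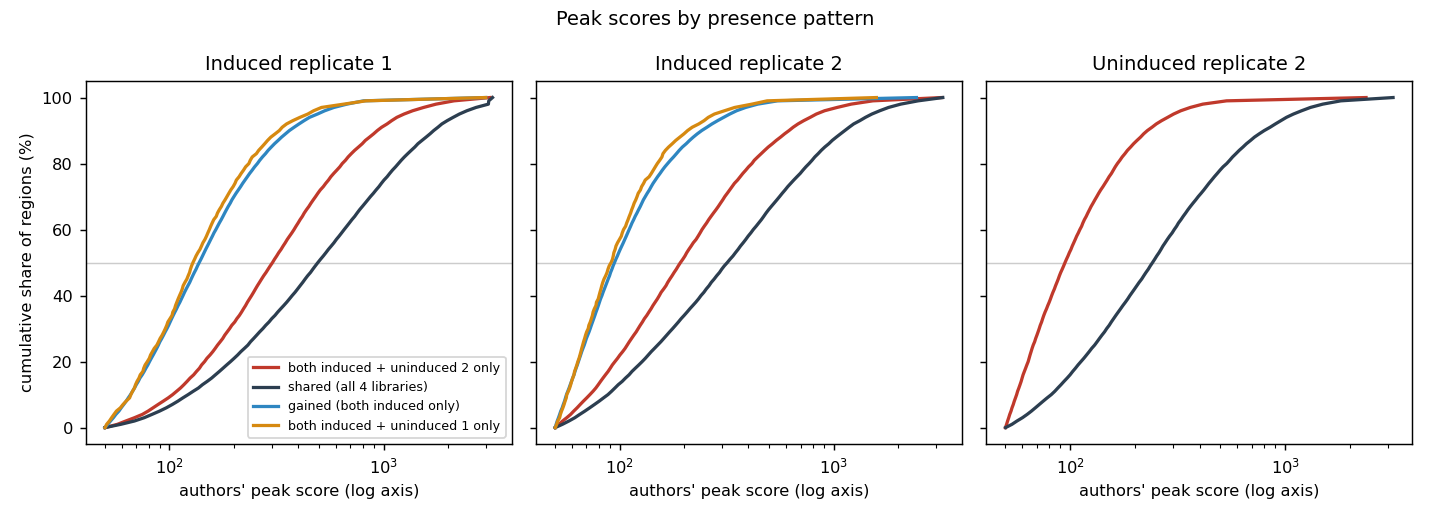
Cumulative share of regions (%) against the authors' peak score (log axis) in induced replicate 1, induced replicate 2 and uninduced replicate 2, by presence pattern. In both induced libraries the curve of the uninduced-2 regions (medians 303 and 192) runs between those of shared (494 and 318) and gained regions (138 and 94.7), while uninduced-1 regions lie beside the gained curve.

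In uninduced replicate 2 itself, the median uninduced-2 region lay below the middle of the list. Their scores ran from 50 to 2378.86, with a median of 94.7 and quartiles of 67.3 and 149. Shared regions had a median of 242 there, with quartiles of 130 and 455. A score of at least 100 was reached by 5595 uninduced-2 regions (46.4%) and by 84.0% of shared regions, and a score of at least 500 by 145 (1.20%) and by 21.9%. The median uninduced-2 region stood at percentile 41.3 of the uninduced replicate 2 list, but at percentiles 67.8 and 60.7 of induced lists 1 and 2. Such percentiles come from lists of different lengths and show no change of binding. At the lower edge, 3 regions scored 50, 50.02 and 50.02 in uninduced replicate 2 (chromosome 7, 19704670 to 19705682; chromosome 2, 166651998 to 166652897; chromosome 4, 45079954 to 45081267). A gained region differs from these in having no called peak there at all. On the other edge, the shared regions with the lowest scores in uninduced replicate 1 stood at 50, 50 and 50.01 there, and at 157.48, 64.92 and 105.3 in uninduced replicate 2 (chromosome 1, 162008901 to 162010003; chromosome 13, 10036412 to 10037377; chromosome 1, 85157762 to 85167075). The last spanned 9314 bp, while its best peaks in induced replicates 1 and 2 and uninduced replicate 2 were 1740, 2412 and 2866 bp wide. It had no peak in either merged list, and the chromosome 13 region had none in the merged uninduced list.

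The share of uninduced-2 regions was highest at intermediate induced strength. Regions found in both induced libraries were divided into 10 equal parts (deciles) by the lower of their 2 induced ranks. Uninduced-2 regions made up 12.6% of the lowest decile, 33.0% of the seventh and 15.9% of the highest. Gained regions fell over the same deciles from 69.1% to 1.23%, and shared regions rose from 12.8% to 82.7%. The highest decile still held 818 uninduced-2 regions against 63 gained ones. A peak in uninduced replicate 2 was present in 25.4% of regions of the lowest decile and 98.7% of the highest, and a peak in uninduced replicate 1 in 18.2% and 82.8%. Within a decile, the uninduced-2 regions scored lower in uninduced replicate 2 than shared regions of like induced rank: their median was 249 against 670 in the highest decile and 68.5 against 91.2 in the lowest.

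**Figure D2:**
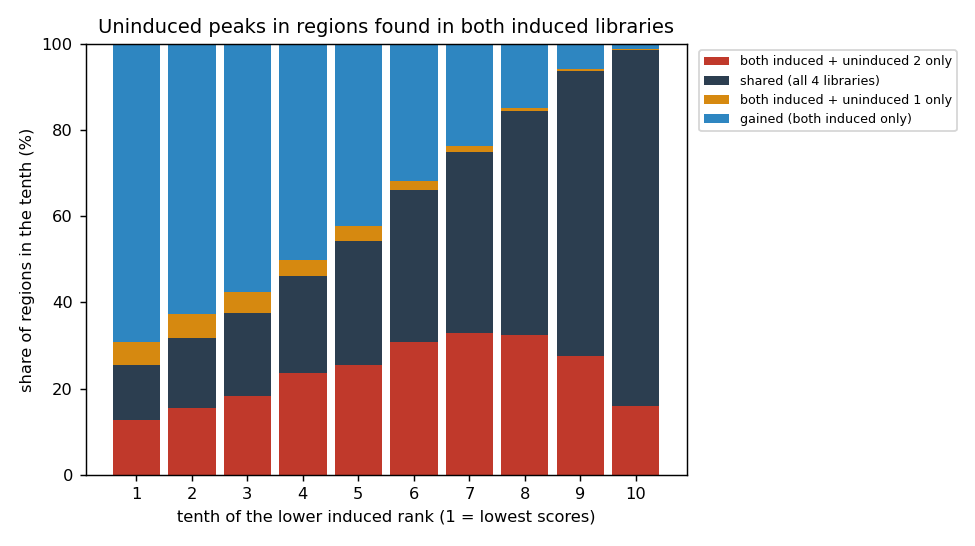
Share (%) of 4 presence patterns among the 51291 regions found in both induced libraries, in deciles of the lower induced rank from weakest (1) to strongest (10). The uninduced-2 share is 12.6% in decile 1, 33.0% in decile 7 and 15.9% in decile 10, while the gained share falls and the shared share rises throughout.

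The authors' merged uninduced list held a peak in 8184 of the 12052 uninduced-2 regions, or 67.9% (95% exact binomial interval 67.1 to 68.7%, counting error only). The background was 50.9% over all regions and 57.6% over regions found in both induced libraries. Among the compared classes the share was 99.9% in shared, 3.94% in gained and 88.0% (86.2 to 89.6%) in uninduced-1 regions. The sources used here do not say how the merged list was made. It belongs to the same cells and condition, so it is no independent check of presence. Where a merged peak was found, its median score in that list was 87.8 in uninduced-2 regions, against 343 in shared, 59.0 in gained and 82.1 in uninduced-1 regions. On the induced side, all but 4 of the uninduced-2 regions had a peak in the merged induced list (background 82.7% over all regions). The share was 99.9% in shared, 99.8% in gained and 99.7% in uninduced-1 regions. All these classes were chosen for a peak in both induced libraries, so this is not particular to the uninduced-2 regions.

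Presence in the merged uninduced list followed the score in uninduced replicate 2. In the lowest decile of that score (50 to 56.38), 26.5% of uninduced-2 regions (24.0 to 29.0%) had a merged peak. The share was 64.9% in the fifth decile (82.04 to 94.65), 96.4% in the eighth and 99.5% in the ninth, and all 1205 regions of the highest decile (228.78 and above) had one. The 3868 regions without a merged peak had a median score of 66.0 in uninduced replicate 2 and none above 191.59, against a median of 121 in regions with one. Their induced scores were lower too, with medians of 242 and 154 in induced replicates 1 and 2 against 340 and 216. The best-scoring of those without a merged uninduced peak, at chromosome 5, 136615209 to 136616592, reached 863.89 and 340.64 in the induced libraries and 191.59 in uninduced replicate 2. Next were chromosome 10, 67091292 to 67092995, with 315.57 and 268.54 induced and 188.27 uninduced, and chromosome 3, 108373917 to 108376382, with 438.26 and 343.42 induced and 187.43 uninduced. Each of these 3 had a peak in the merged induced list.

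The chance of lacking the other uninduced peak fell with score in both directions, but from different heights. Among regions present in uninduced replicate 2 and both induced libraries, 74.7% of the lowest score decile lacked a peak in uninduced replicate 1, 43.2% of the fifth and 2.54% (2.02 to 3.16%) of the highest, which is 80 of 3144 regions. Taken the other way, 21.4% of the lowest decile of uninduced replicate 1 lacked a peak in replicate 2 and 6.72% of the fifth. In its highest decile there were 0 of 2082, which allows a share of up to 0.144% by a limit of 3 counts and up to 0.177% by the exact interval. The deciles come from separate lists, so their scores are not matched.

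**Figure D3:**
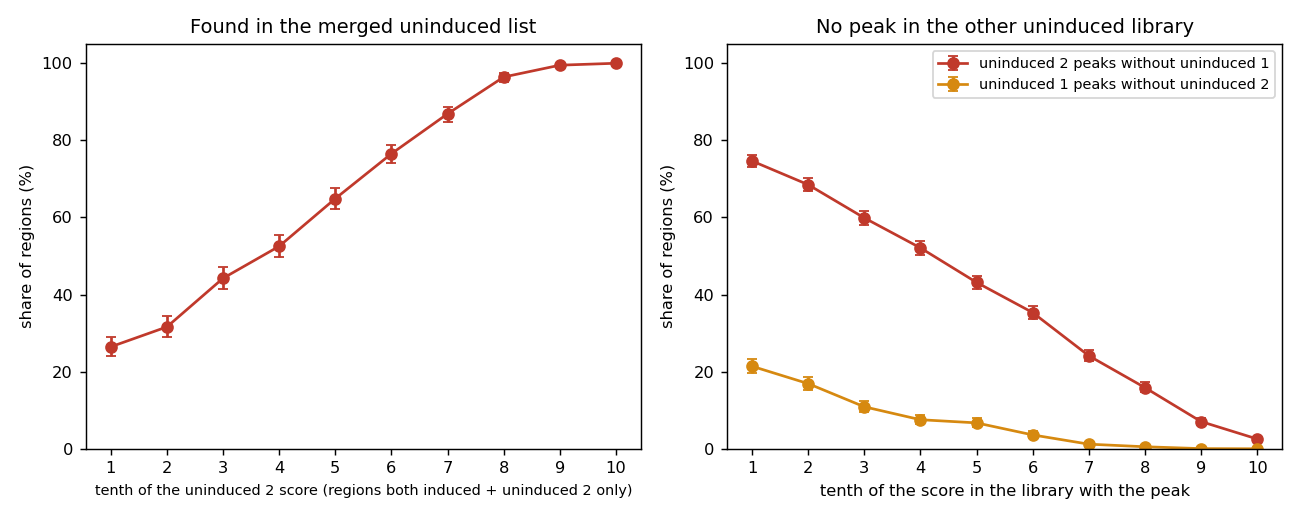
Left, share (%) of uninduced-2 regions with a peak in the authors' merged uninduced list, by decile of their score in uninduced replicate 2. Right, share (%) of regions of both induced lists that lack a peak in the other uninduced library, by score decile in the library that has the peak. Bars are 95% exact binomial intervals. The left curve climbs from 26.5% to 100%, and on the right the curve for uninduced replicate 2 peaks (74.7% to 2.54%) lies above that for uninduced replicate 1 peaks (21.4% to 0%).

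A small set of uninduced-2 regions was strong in every library but uninduced replicate 1. Scores of at least 1000 in both induced libraries were seen in 386 of them, and 17 reached 1000 in uninduced replicate 2. In 14 the lower induced score was 3100, a value that recurs among high peaks of every list although each list also holds higher scores. Their order is therefore not read as an order of strength. The region with the highest score in uninduced replicate 2 lay at chromosome 16, 70803366 to 70804973. It scored 3100 in each induced library and 2378.86 in uninduced replicate 2, and 1235.72 in the merged uninduced list. The nearest peak of uninduced replicate 1 was 90746 bp away. The region at chromosome 11, 115338126 to 115340350, scored 3100 in each induced library and 2336.32 in uninduced replicate 2. This one had a peak of uninduced replicate 1 only 673 bp from its edge and a shared region at 543 bp. On chromosome 17 lay the next, a broad region of 5988 bp (57808782 to 57814769) with 3100 in each induced library and 2201.59 in uninduced replicate 2. Its induced peaks were 5988 and 5830 bp wide and its peak in uninduced replicate 2 was 2888 bp wide. A further region on that chromosome (48696706 to 48698992) scored 3100 in each induced library and 2026.89 in uninduced replicate 2, and one on chromosome 5 (152124041 to 152125440) had 3100 and 1533.14. None of these 5 had a called peak in uninduced replicate 1, and all had one in both merged lists.

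The next 5 were taken by the lower of the induced scores, among regions not already named for their uninduced replicate 2 score. All belong to the 14 tied at 3100, so position decided which of these were named. A pair of neighbours on chromosome 5, at 138297281 to 138301620 and 138311396 to 138314729, scored 1012.25 and 1307.03 in uninduced replicate 2, with at least 3100 in both induced libraries. The region at chromosome 8, 14377766 to 14379481, scored 1089.93 in uninduced replicate 2, and that at chromosome 8, 40107593 to 40109181, scored 382.33, again with 3100 in both induced libraries. At chromosome 6, 57441922 to 57444876, the induced score was 3100 in both libraries, but uninduced replicate 2 had 59.44, close to the lower end of its list, and the merged uninduced list had no peak. Its induced peaks were 2955 and 2744 bp wide and its uninduced peak 913 bp.

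Ranks within the class were held between the induced libraries and less so between conditions. Over the 12052 regions the rank correlation of scores was 0.91 between the induced libraries, 0.47 between induced replicate 1 and uninduced replicate 2, and 0.46 between induced replicate 2 and uninduced replicate 2. Over shared regions these values were 0.95, 0.74 and 0.75. The regions share their libraries and the uninduced-2 scores cover a narrower range, so the values are descriptions without a test.

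The uninduced peak lay close to the middle of the induced peak, as it did in shared regions. The midpoints of the best peaks of induced replicate 1 and uninduced replicate 2 lay a median of 71.5 bp apart in uninduced-2 regions (quartiles 32.5 and 136), against 73.5 bp in shared regions. For induced replicate 2 and uninduced replicate 2 the medians were 68.5 and 70.5 bp, and between the induced libraries 57.0 and 58.5 bp. Of the uninduced-2 regions, 99.7% had an uninduced peak that overlapped the best peak of induced replicate 1 by at least 50% of the narrower of the pair. Position within a region was not used to choose the regions beyond 1 bp of overlap. Peaks were narrower than in shared regions in each library: a median of 1114 against 1211 bp in induced replicate 1, 1024 against 1100 bp in induced replicate 2, and 870 against 1011 bp in uninduced replicate 2. Gained regions had 962 and 890 bp in induced replicates 1 and 2. More than 1 peak of uninduced replicate 2 was found in 2.07% of uninduced-2 and 6.21% of shared regions.

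In their distance to shared regions the uninduced-2 regions again stood between shared and gained regions, but here the uninduced-1 regions did so as well. The nearest shared region lay a median of 16.2 kb away, edge to edge, for uninduced-2 regions, against 22.0 kb for gained and 18.6 kb for uninduced-1 regions, and shared regions lay 11.9 kb from the next shared one. Within 10 kb of a shared region were 4644 uninduced-2 regions, or 38.5% (37.7 to 39.4%). The background over all regions that are not shared was 30.5%, and gained and uninduced-1 regions had 33.1% and 34.9%. This distance hardly varied with strength: the median was 16.9 kb in the lowest and also in the highest decile of the uninduced replicate 2 score, and it ran from 14.1 to 17.9 kb over all 10 deciles. Regions are not independent of their neighbours, and no test was made of these shares.

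Distances to gained regions did not separate uninduced-2, shared and gained regions in this way. The nearest gained region lay a median of 19.1 kb from an uninduced-2 region, 19.1 kb from a shared region and 18.9 kb from the next gained region. From an uninduced-1 region it lay further, at 21.3 kb. The nearest other uninduced-2 region lay 26.2 kb from an uninduced-2 region, and the nearest one lay 25.2 kb from a shared and 34.0 kb from a gained region. The single nearest region of any kind, at a median of 3161 bp, was a shared one for 26.4% of uninduced-2 regions. It was a gained one for 22.7% and another of their own class for 17.5%. Over all regions, 23.4% were shared, 22.2% gained and 14.6% uninduced-2. For 30.0% the nearest was a region outside the compared classes, not counting those found only in both uninduced libraries. This share was 29.6% for shared, 31.5% for gained and 32.5% for uninduced-1 regions, so it is not particular to the class. For gained regions the nearest was of the uninduced-2 class in 15.1%, and for shared regions in 16.0%.

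A nearby peak of uninduced replicate 1 that just failed to overlap was uncommon. Only 437 uninduced-2 regions (3.63%) had one within 500 bp and 882 (7.32%) within 1 kb, against 2.87% and 5.94% of gained regions. The median distance to the nearest peak of uninduced replicate 1 was 12.0 kb for uninduced-2 and 15.2 kb for gained regions. When regions with such a peak within 1 kb were left out, 11170 remained and 67.6% of them had a merged uninduced peak.

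**Figure D4:**
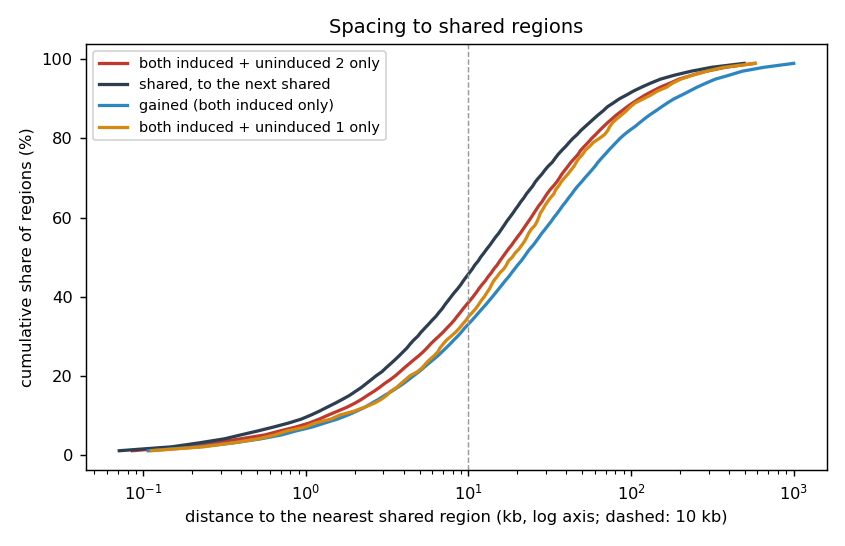
Cumulative share of regions (%) against the distance to the nearest shared region (kb, log axis), with a dashed line at 10 kb. The uninduced-2 curve (median 16.2 kb) lies between that of shared regions to the next shared region (11.9 kb) and that of gained regions (22.0 kb). The median of uninduced-1 regions (18.6 kb) also lies between these.

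With all regions in chromosome order, 69.3% of the uninduced-2 regions had a region of another pattern on each side, 23.0% stood in pairs and 5.95% in runs of 3. Shared and gained regions, which are more numerous (23.4% and 22.2% of all regions, against 14.6%), had another pattern on each side in 51.1% and 55.6%. A rarer pattern has fewer neighbours of its own kind by number alone, so nothing particular to the class is read from this. The longest run held 10, on chromosome 12 from 25985537 to 26202357, and spanned 217 kb with no region of another pattern in between. Its scores in uninduced replicate 2 ran from 107.91 to 492.24 with a median of 164, above the median of the class, and 9 of the 10 had a merged uninduced peak. The run was chosen after its length was seen. In fixed windows of 100 kb, 34.0% of uninduced-2 regions were alone of their class. The fullest window, at chromosome 15, 79500001 to 79600000, held 10, beside 2 shared and 4 gained regions, with uninduced scores from 50.34 to 253.47. The window at chromosome 9, 50300001 to 50400000, held 9, beside 6 shared and 1 gained, and that at chromosome 6, 88700001 to 88800000, held 8, beside 2 shared and 5 gained. A window at chromosome 17, 45700001 to 45800000, also held 8, beside 2 shared and 3 gained.

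Across chromosomes the class followed the shared regions closely, with a few departures. The share of regions in both induced libraries and uninduced replicate 2 that lacked a peak in uninduced replicate 1 was between 35.4% and 40.2% on 18 of the 20 chromosomes, the other 2 being 3 and X. On chromosome X it was 45.5% (95% exact binomial interval 41.0 to 50.0%; 220 of 484 regions), and on chromosome 3 it was 33.9% (31.4 to 36.4%; 469 of 1385). Chromosome 19 had 35.4% (32.4 to 38.4%). Chromosomes 3 and 19 also had the highest shares of the opposite kind, with 10.6% and 10.9% of regions in both induced libraries and uninduced replicate 1 lacking a peak in replicate 2, against 6.89% genome-wide. On both, uninduced-2 regions made up a smaller part of the regions with a peak in each induced library, 18.2% and 18.3%, than the 23.5% of the whole genome. On chromosome 3 the share lacking uninduced replicate 1 was alike in the segment from 85 to 120 Mb (33.5%, 158 of 471) and on the rest (34.0%, 311 of 914). Intervals cover counting error only, and no chromosome was tested against the others.

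**Figure D5:**
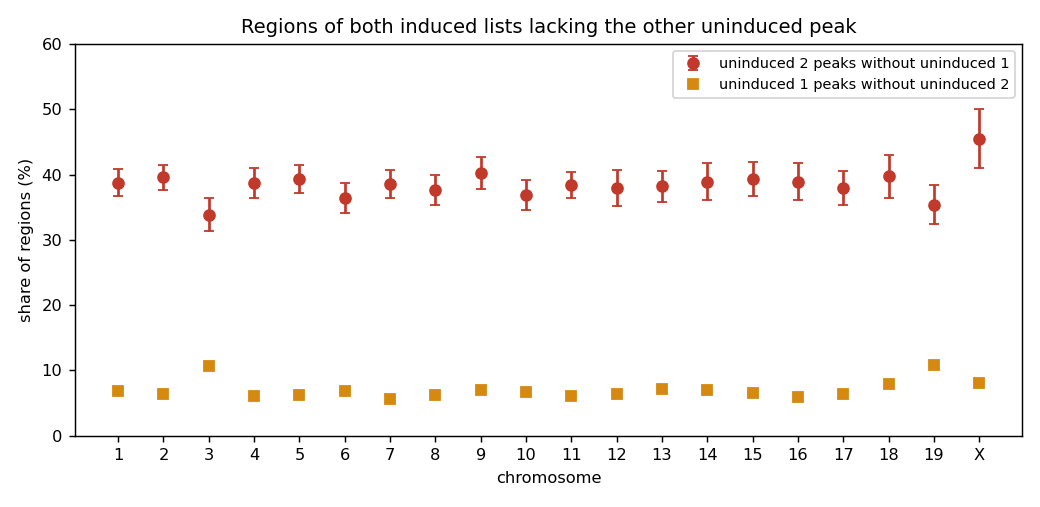
For each chromosome, the share (%) of regions found in both induced libraries and uninduced replicate 2 that had no peak in uninduced replicate 1 (circles, with 95% exact binomial intervals), and the same with the uninduced replicates exchanged (squares). Circles lie between 33.9% on chromosome 3 and 45.5% on X, and squares are highest on chromosomes 3 and 19 (10.6% and 10.9%).

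The class was also counted in shortened lists. With each library limited to its 31960 best-scoring peaks, the number in the shortest list, 6166 of the 12052 uninduced-2 regions (51.2%) kept peaks in both induced libraries and uninduced replicate 2. A further 1601 (13.3%) kept only the induced peaks and so had the gained pattern, 1345 (11.2%) kept only the uninduced peak, and 1273 (10.6%) kept no peak. Uninduced replicate 2 then started at a score of 71.15, while uninduced replicate 1 still started at 50. Because uninduced replicate 1 was left whole and the other 3 lists were shortened, the members could only lose peaks, so this does not show how much of the class is due to list length. With the shortened lists merged anew, there were 6168 uninduced-2 and 722 uninduced-1 regions, against 12052 and 1434 in the full lists. Shared regions went from 19391 to 14552 and gained regions from 18414 to 6480, so the other classes shrank as well. Regions could change class between the full and the shortened lists.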

How the data were processed

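PU.1 ChIP-seq peak lists of 2 induced and 2 uninduced libraries, and 1 merged list per condition, were used; the 2 input libraries were not used here. Trim Galore, Bowtie, MACS 1.4.1 and mouse build mm9 are named in the submitters' processing notes. Each deposited list gives chromosome, start, end, peak name and a score, the authors' own value per peak, on a scale that the sources used here do not give. Per the labels' protocols, a polyclonal anti-PU.1 antibody was used on 300 ug of chromatin. Depth is unknown, and an absent peak means only that none was called.

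Peaks sharing at least 1 bp were merged into regions, with pandas 2.3.3 and NumPy 2.4.6 under Python 3.11.15. SciPy 1.17.1 gave the intervals and matplotlib 3.10.9 the plots. The number of regions was checked against bedtools 2.31.1. Recovery of the presence patterns was tested on simulated lists of widely spaced sites only, an easier case than the lists used here. Positions are in mm9, counted from 1. Distances are edge to edge. Intervals are 95% exact binomial (Clopper-Pearson) and cover counting error only. No test was made, because the peak calls that would be tested also chose the regions. The members, classes and comparisons were chosen with earlier results of these data known. Named regions were the 5 with the highest uninduced replicate 2 score, the next 5 by lower induced score (ties by position), the 3 at each edge of the rule, the 3 best-scoring without a merged uninduced peak, and the 3 windows of 100 kb with most members, with a window tied for the third place. Gene annotation and sequence of mm9 were not used here, so no gene is named and no sequence shown.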

Additional observations from a re-analysis of the deposited data

How the results depend on the processing

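The uninduced-2 regions numbered 12052 in the analysis as reported, with 67.9% in the merged uninduced list, a median score of 94.7 in uninduced replicate 2 and 38.5% within 10 kb of a shared region. Where peaks had to overlap by 50% of each interval, they numbered 11688, and the other values were 69.7%, 98.0 and 36.5%. With peaks scoring at least 100, they numbered 8325, with 96.2%, 173 and 28.7%. Of these, 4966 overlapped a region of the class as reported and 3359 did not, so this is partly another set of regions. With lists of equal length, they numbered 6168, with 83.4%, 135 and 33.8%. The shared regions change with these settings too, and numbered 14552 with lists of equal length against 19391. No background near shared regions is given for the changed settings, so these shares are not to be set against the 30.5% of the full lists. When 1 library was left out, their number ran from 12659 (without induced replicate 1) to 31461 (without uninduced replicate 1), the merged share from 66.6% to 87.7%, the median score from 90.4 to 158 and the share near shared regions from 39.0% to 40.0%. The high ends of the first 3 ranges belong to uninduced replicate 1, without which shared regions enter the class and the distance to them has no value. Without uninduced replicate 2 the rule cannot be applied. With windows of 2 and 50 kb, 13.0% and 77.4% lay near a shared region. With the uninduced replicates exchanged, the pattern was found in 1434 regions, none of them among the 12052, and in 722 with lists of equal length, a count added after seeing the data. Leaving out regions with an uninduced replicate 1 peak within 1 kb, an alternative chosen after seeing the data, gave 34.4% near a shared region and kept the number, merged share and median score within their intervals or 1.5 times. No paired analysis was possible because the results come from no test.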
